A study of Mus musculus with 6 samples.

Results

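The genes described here are those of antigen presentation, the set of proteins with which a cell shows peptides or lipids to T cells. They were chosen by name as every gene of the deposited count table whose symbol begins with H2- (38 genes) and 16 named genes (B2m, Tap1, Tap2, Tapbp, Psmb8, Psmb9, Psmb10, Psme1, Psme2, Nlrc5, Erap1, Cd74, Ciita, Cd1d1, Cd80 and Cd86). The rule gave 54 of 20295 genes. They were measured by RNA sequencing in adipocytes differentiated in culture from brown (BAT), inguinal white (iWAT) and epididymal white (eWAT) fat, with 2 libraries from each depot. Every culture started from the stromal-vascular fraction, the cells other than mature adipocytes that collagenase frees from fat, of NMRI males 4 to 5 weeks old. The brown fat was a pool of interscapular, cervical and axillary pads. All cultures were given 1 µM rosiglitazone, 30 nM insulin and serum of newborn calves (10%). Rosiglitazone is an activator of the adipogenic receptor Pparg. No group was left undifferentiated or treated with interferon. Cells were collected 8 days after plating per the protocol, while the sample tags read day 7, and cultures with 50% or fewer differentiated cells were not used, so each library is a mixture of adipocytes and other stromal-vascular cells.

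Class I molecules consist of a heavy chain and the invariant light chain B2m. They carry peptides that the proteasome cuts in the cytosol, that the Tap1 and Tap2 transporter moves into the endoplasmic reticulum and that tapasin (Tapbp) helps to load. Most nucleated cells make them, Nlrc5 activates their genes, and interferon raises their level together with the inducible subunits of the immunoproteasome. Class II molecules carry peptides from endocytosed proteins, depend on the activator Ciita and the invariant chain Cd74, and are known mainly from dendritic cells, B cells and macrophages, the last of these a usual resident of fat.

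Total counts per library ran from 2889038 to 4807449, and 11732 genes passed the filter on low counts. Adipoq, an adipocyte hormone, stood at 1463 and 2171 CPM (counts scaled to a common library total) in BAT, 1428 and 1602 CPM in iWAT and 1401 and 2396 CPM in eWAT cultures, and none of 6 adipocyte markers was called between depots in the test below. Their summed CPM was 29673 and 38037 in BAT, 23757 and 22094 in iWAT and 20324 and 23285 in eWAT, so that both BAT libraries lay above the other 4. The summed CPM of 20 macrophage markers was 469.6 and 101 in BAT, 674 and 201 in iWAT and 5007 and 2251 in eWAT. The 6 T cell markers together had 3 and 2 counts in BAT, 6 and 13 in iWAT and 7 and 3 in eWAT. One of them, Cd3e, had no count in any library, which allows up to 3 counts a library. A sum in bulk RNA cannot tell fewer cells of a type from less RNA per cell. The labels do not say that the replicates came from separate animals or cultures. A p-value here therefore weighs a difference only against how far libraries of the same depot lie apart, which may be technical. In the main fit that spread was estimated from all 6 libraries and drawn toward that of other genes. A p-value for 2 depots thus also rests on the libraries of the remaining depot.

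Of the 54 genes, 30 passed the filter and 24 did not. Among those 24, 6 (H2-Oa, H2-M10.4, H2-M10.5, H2-M10.6, H2-Q7 and H2-Q8) had no count in any library, and the other 18 had between 1 and 30 counts over all libraries. The table sums reads over a stated length of each gene, which was under 200 bases for 4 members (H2-L with 4, H2-Q7 with 15, H2-Q8 with 30 and H2-T22 with 119 bases), so a low count there does not bear on the gene's level. In the mm9 coordinates of the table H2-L lies within H2-D1, and values for the pair are uncertain.

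Class I genes were lowest in BAT cultures. All 19 tested class I members (13 heavy chains and 6 pathway genes) had both BAT libraries below both eWAT libraries, as had 28.5% of all tested genes. Here and below, the 19 include H2-L, which has 4 counted bases and lies within H2-D1, so it adds little of its own. Of the 19, 11 were called lower in BAT than in eWAT cultures by the edgeR quasi-likelihood test (adjusted p below 0.05), H2-L not among them. With Psmb10 of the immunoproteasome, 12 of the 30 tested antigen presentation genes were called lower and 0 higher. Over all 11732 tested genes 3.75% were called lower and 2.71% higher. DESeq2 called 15 members lower (5.72% of its genes) and limma voom 12 (2.68%). The median log2 difference between BAT and eWAT was -1.64 for the 19 class I genes and -1.56 for the 30 members, against -0.03 over all tested genes.

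B2m, the light chain (mm9 chr2:121973422-121978818, plus strand), had 977 and 577 CPM in BAT, 1826 and 1895 CPM in iWAT and 2185 and 2399.7 CPM in eWAT cultures. The libraries of the depots did not overlap, with BAT lowest and eWAT highest. The log2 difference of B2m between BAT and eWAT was -1.56 ± 0.30 (SE; adjusted p = 0.0378). H2-K1, a classical heavy chain (chr17:34132956-34137278, minus strand), had 332 and 240.1 CPM in BAT, 657 and 687 CPM in iWAT and 748 and 974 CPM in eWAT. Its log2 difference between BAT and eWAT was -1.59 ± 0.24 (adjusted p = 0.0284), the smallest adjusted p among the members. H2-D1, the other main classical chain (chr17:35400038-35404442, plus strand), had 338 and 212 CPM in BAT, 618 and 775 CPM in iWAT and 752 and 1058 CPM in eWAT. For this gene iWAT and eWAT overlapped, BAT stood below both, and the log2 difference between BAT and eWAT was -1.72 ± 0.31 (adjusted p = 0.0361). Per kilobase of counted length, B2m averaged 905 CPM in BAT, 2168 CPM in iWAT and 2672 CPM in eWAT cultures, H2-D1 407, 1029.98 and 1339 CPM, and H2-K1 174, 408 and 523 CPM, so that B2m led and H2-K1 was the lowest of the 3 genes in each depot.

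The make-up of class I RNA varied less than its amount. Summed over the 27 heavy chains and B2m, class I stood at 1766 and 1093 CPM in BAT, 3339 and 3622 CPM in iWAT and 3969 and 4804 CPM in eWAT cultures. B2m held from 49.9% to 55.3% of that sum in the 6 libraries, H2-K1 from 18.8% to 22.0% and H2-D1 from 18.5% to 22.0%. H2-Q4, a chain of the Q region, held 1.84% and 1.29% in BAT, 2.38% and 2.42% in iWAT and 2.56% and 2.79% in eWAT.

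**Figure D1:**
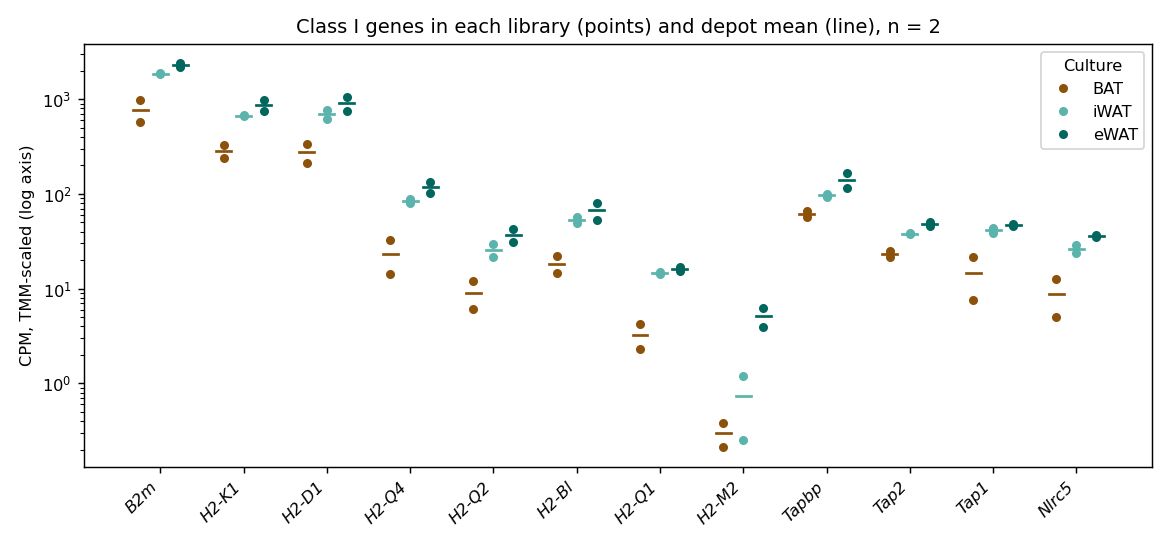
Level of 12 class I genes (CPM, log axis) in each library (points) with the mean of each depot (line, n = 2), for BAT, iWAT and eWAT cultures from left to right. B2m averaged 777 ± 283 CPM in BAT, 1861 ± 48.8 CPM in iWAT and 2292 ± 152 CPM in eWAT (SD), and every gene shown has both BAT points below both eWAT points.

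The promoters of these genes are shown because the genes moved together across depots. Each sequence is the 250 bases before the RefSeq start (GRCm38.p6), 5′ to 3′ on the gene's strand: H2-K1 at chr17:34000348-34000597 (minus strand), H2-D1 at chr17:35262844-35263093, H2-Q4 at chr17:35379367-35379616 and B2m at chr2:122147437-122147686 (plus strand). Capitals mark the motifs searched on both strands. These were CCAAT, which reads as ATTGG where it lies on the other strand, the interferon response core GAAANNGAA, the X box core AGCAAC, and TTTCACTTC and GGGGATTCC, which were added after the sequences were seen.
H2-K1: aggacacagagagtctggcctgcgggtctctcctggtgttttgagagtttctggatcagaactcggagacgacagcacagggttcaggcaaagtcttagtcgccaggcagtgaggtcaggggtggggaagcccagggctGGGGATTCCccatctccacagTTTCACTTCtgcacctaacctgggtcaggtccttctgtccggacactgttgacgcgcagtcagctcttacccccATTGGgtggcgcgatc
H2-D1: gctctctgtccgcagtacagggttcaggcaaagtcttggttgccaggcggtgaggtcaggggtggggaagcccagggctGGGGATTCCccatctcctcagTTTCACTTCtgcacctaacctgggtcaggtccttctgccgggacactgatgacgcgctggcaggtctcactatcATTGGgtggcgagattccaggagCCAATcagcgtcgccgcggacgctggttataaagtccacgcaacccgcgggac
H2-Q4: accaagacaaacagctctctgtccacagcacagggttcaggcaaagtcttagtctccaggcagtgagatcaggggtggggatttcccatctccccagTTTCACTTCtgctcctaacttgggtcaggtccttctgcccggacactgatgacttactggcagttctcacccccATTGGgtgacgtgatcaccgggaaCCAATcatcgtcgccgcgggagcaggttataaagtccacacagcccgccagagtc
B2m: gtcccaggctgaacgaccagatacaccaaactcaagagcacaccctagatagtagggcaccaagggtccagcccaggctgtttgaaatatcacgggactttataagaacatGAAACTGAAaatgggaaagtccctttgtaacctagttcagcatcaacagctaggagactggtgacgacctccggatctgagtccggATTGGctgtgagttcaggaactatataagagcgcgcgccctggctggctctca
CCAAT was in 23 of 27 windows of class I chains and pathway genes (85.2%) and in 33 of 44 windows of all members (75.0%), against 37.4% of 32851 mouse windows of the same 300 bases (250 before and 50 after the start). It was also in 8 of 9 class II windows and in those of H2-M10.4, H2-M10.5 and H2-M10.6, which had no count. CCAAT thus does not set apart the genes that moved together. Windows were at hand for 40 of the 54 members, with more than 1 for some genes. The exact pattern GAAANNGAA was in 5 of 44 member windows (11.4%), B2m among them, against 8.56% of all. Looser forms of it were not counted with it. TTTCACTTC was in 7 of 44 windows, those of H2-K1, H2-D1, H2-Q4, H2-Q7, H2-Q10 and H2-M3, against 0.505% of all windows. GGGGATTCC was in 4 of 44 (H2-K1, H2-D1 and H2-Q7), against 0.25%. The marked motifs do not overlap one another in these sequences. Heavy chain genes are related copies, so their windows are not independent, and a match of letters is a description of the window only.

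Of the 10 tested nonclassical heavy chains 5 were called lower in BAT than in eWAT cultures (50.0%, beside 3.75% of all tested genes). H2-Q4 (chr17:35516561-35521619) had 32.5 and 14.1 CPM in BAT, 79.4 and 87.7 CPM in iWAT and 102 and 134 CPM in eWAT, with a log2 difference between BAT and eWAT of -2.30 ± 0.38 (adjusted p = 0.0313). H2-Q1 had 4.23 and 2.29 CPM in BAT, 14.2 and 15.1 CPM in iWAT and 15.4 and 17.1 CPM in eWAT (log2 difference of BAT from eWAT -2.24 ± 0.35, adjusted p = 0.0288). H2-Q2 had 12.0 and 6.12 CPM in BAT, 21.6 and 29.7 CPM in iWAT and 31.0 and 42.9 CPM in eWAT (-1.97 ± 0.38, adjusted p = 0.0388). In these Q-region genes no depot overlapped another, and BAT was lowest. H2-Bl had 22.0 and 14.5 CPM in BAT, 49.1 and 57.3 CPM in iWAT and 53.6 and 81.1 CPM in eWAT (-1.86 ± 0.30, adjusted p = 0.0303), and here iWAT and eWAT overlapped. H2-M2 was scarce, with 1 count in each BAT library, 5 and 1 counts in the iWAT libraries and 17 and 22 counts in the eWAT libraries. Its CPM ratio of BAT to eWAT was 0.0545 (exact 95% interval 0.00638 to 0.211, for counting error only; adjusted p = 0.0458), and eWAT stood apart from both other depots. The other 5 tested nonclassical chains (H2-T23, H2-M3, H2-Q10, H2-T10 and H2-T24) were not called, with log2 differences of BAT from eWAT between -1.67 and -0.77. H2-T23, which encodes the ligand of an inhibitory receptor of natural killer cells, came closest (adjusted p = 0.0504). The classical chain H2-L, whose 4 counted bases carry little, was not called either (-1.82 ± 0.67, adjusted p = 0.156).

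Of the genes that load class I molecules or activate their transcription, Nlrc5, Tap2 and Tapbp were called lower in BAT than in eWAT. Nlrc5 (chr8:96996662-97051172), the class I transactivator, had 12.7 and 4.97 CPM in BAT, 28.6 and 23.6 CPM in iWAT and 36.8 and 35.0 CPM in eWAT cultures. Its log2 difference between BAT and eWAT was -1.96 ± 0.40 (adjusted p = 0.044). Tap2, one chain of the peptide transporter, had 21.3 and 25.2 CPM in BAT, 37.5 and 38.5 CPM in iWAT and 50.1 and 46.4 CPM in eWAT (-1.06 ± 0.19, adjusted p = 0.0344). Its partner Tap1 had 21.3 and 7.65 CPM in BAT, 39.0 and 43.7 CPM in iWAT and 46.4 and 47.8 CPM in eWAT, but was not called (-1.64 ± 0.42, adjusted p = 0.0689). The BAT libraries of Tap1 lay far apart, which the SE reflects. Tapbp had 65.5 and 57.0 CPM in BAT, 101 and 93.8 CPM in iWAT and 116 and 165 CPM in eWAT (-1.19 ± 0.22, adjusted p = 0.0368). Erap1, the peptidase that trims peptides for loading, was not called (-0.86 ± 0.29, adjusted p = 0.133). For these 5 genes and B2m the libraries stood in the order BAT below eWAT without overlap. Of 7 tested genes in a wider list for class I loading, which includes general chaperones such as Calr and Pdia3, 0 were called in any comparison.

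**Figure D2:**
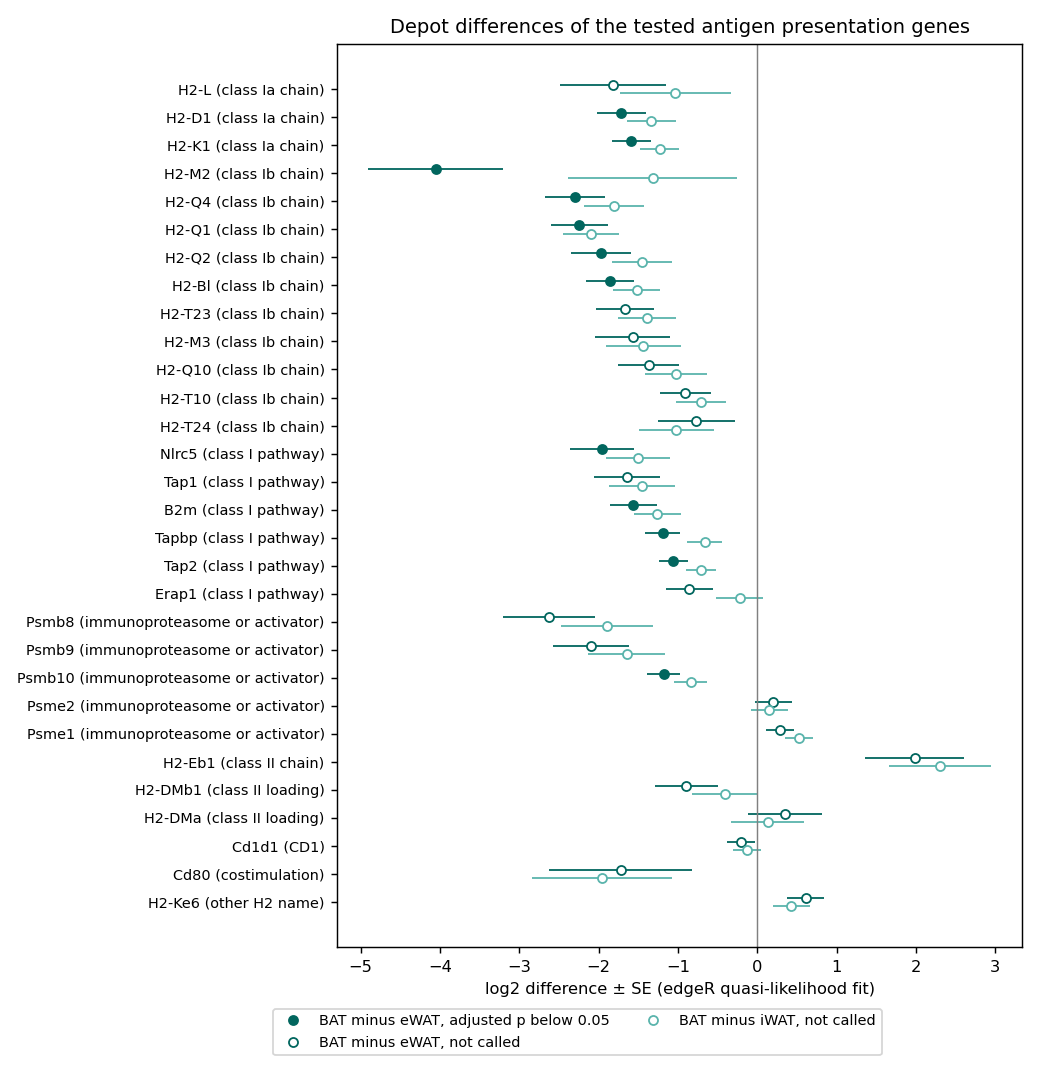
Log2 difference (bars, ± SE) of BAT from eWAT (dark) and of BAT from iWAT (light) for the 30 tested genes, grouped by role from top to bottom, with filled points for an adjusted p below 0.05. The 12 filled points are all lower in BAT than in eWAT, and H2-Eb1 lies farthest to the right (1.98 ± 0.63 for BAT minus eWAT).

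The 3 inducible catalytic subunits of the immunoproteasome had lower levels in both BAT libraries than in any other library. Psmb10 had 20.7 and 16.1 CPM in BAT, 34.4 and 31.9 CPM in iWAT and 42.4 and 41.5 CPM in eWAT cultures and was called lower in BAT than in eWAT (-1.18 ± 0.21, adjusted p = 0.0344). Psmb8 (chr17:34335139-34338399) had 12.5 and 2.29 CPM in BAT, 31.5 and 27.7 CPM in iWAT and 55.0 and 43.8 CPM in eWAT, and its log2 difference of -2.63 ± 0.58 missed the threshold (adjusted p = 0.0517). Psmb9 had 4.65 and 1.53 CPM in BAT, 11.8 and 9.05 CPM in iWAT and 14.0 and 14.5 CPM in eWAT (-2.09 ± 0.48, adjusted p = 0.0558). The depots did not overlap for any of the 3. In a list of 5 other proteasome genes none was called. They were Psme3, Psme4 and the 3 subunits that the inducible ones replace, Psmb5 (-0.16), Psmb6 (0.02) and Psmb7 (0.62, adjusted p = 0.106). The activator subunits Psme1 and Psme2, which the same stimuli raise, gave 0.28 ± 0.18 (adjusted p = 0.376) and 0.20 ± 0.23 (adjusted p = 0.637).

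Set against its constitutive partner per kilobase of counted length, Psmb8 made up 38.4% and 11.1% of Psmb8 plus Psmb5 in BAT, 53.1% and 55.5% in iWAT and 73.5% and 65.3% in eWAT cultures. Psmb9 made up 4.35% and 1.59% of Psmb9 plus Psmb6 in BAT, 12.3% and 9.09% in iWAT and 12.2% and 13.5% in eWAT. Psmb10 made up 7.38% and 4.76% of Psmb10 plus Psmb7 in BAT, 14.4% and 12.5% in iWAT and 19.8% and 16.7% in eWAT. Each share was lowest in the BAT libraries, and for Psmb9 the iWAT and eWAT libraries overlapped. These shares are of RNA, and no test was made of them.

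**Figure D3:**
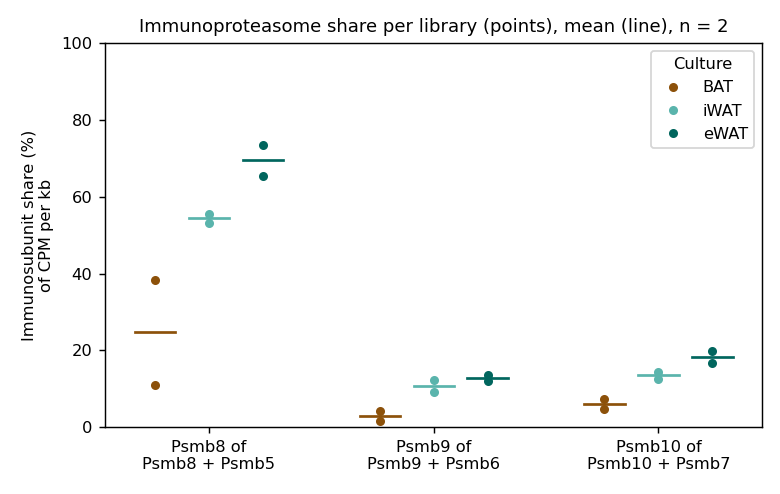
Share (%) of each inducible subunit in the sum of that subunit and its constitutive partner, from CPM per kilobase, in each library (points) with the depot mean (line, n = 2), for BAT, iWAT and eWAT from left to right. Psmb8 covers the widest range, with 38.4% and 11.1% in BAT and 73.5% and 65.3% in eWAT.

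Differences of BAT from iWAT ran the same way, but none was called by the edgeR test with depot as the only term. All 19 tested class I genes had a negative log2 difference, 16 of them with both BAT libraries below both iWAT libraries. Over all tested genes 24.1% had both BAT libraries below both iWAT ones, and 0.895% were called lower and 0.145% higher. The edgeR test called 0 of the 30 members, with 19 at an unadjusted p below 0.05. DESeq2 called 8 of the 30 lower (2.71% of its genes), and limma voom called 0 (0.528%). With the replicate number as a block, edgeR called 13 of the 30, all lower, and 10.4% of all tested genes in either direction. No label says that a replicate number marks a shared batch. The smallest adjusted p of the edgeR test was that of H2-Q1 (0.0643, log2 difference -2.10 ± 0.35), followed by H2-Bl (-1.52 ± 0.30, adjusted p = 0.0909) and H2-K1 (-1.23 ± 0.24, adjusted p = 0.0911). The median over the 19 was -1.32, against -0.02 over all tested genes.

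Between iWAT and eWAT the class I differences were smaller. The log2 difference of iWAT from eWAT was negative for 18 of the 19 class I genes, with a median of -0.34, and 11 of them had both iWAT libraries below both eWAT libraries, as had 18.8% of all tested genes. For neither the members nor any other gene was a difference called (0.0% by the edgeR test). At an unadjusted p below 0.05 there were 2 members by edgeR and 1 by each of DESeq2 and limma voom, and these tools called 0 (lower over all genes, 1.34% and 0.0%). H2-M2 had the largest difference (-2.74 ± 0.70, adjusted p = 0.225), and that of B2m was -0.30 ± 0.29 (adjusted p = 0.950). In 9 of the 19 class I genes (B2m, Nlrc5, Tap1, Tap2, Tapbp, H2-K1, H2-Q1, H2-Q2 and H2-Q4) every BAT library lay below every iWAT library and every iWAT library below every eWAT library, an order held by 4.98% of all tested genes. The 3 comparisons share libraries and are not independent of one another.

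Class II genes were near the limit of detection in all depots. The 5 chains and Cd74 together had 20 and 13 counts in the BAT libraries, 11 and 15 in the iWAT libraries and 17 and 20 in the eWAT libraries, against 2859 to 17039 counts of class I in a library. Of the 12 class II members 3 were tested and 0 called in any comparison. In CPM the class II sum was 4.23 and 4.97 in BAT, 2.65 and 3.77 in iWAT and 3.96 and 5.69 in eWAT, where BAT overlapped eWAT. Class II held 0.239% and 0.453% of the class I and class II counts in BAT, 0.0792% and 0.104% in iWAT and 0.0997% and 0.118% in eWAT. The exact 95% intervals, for counting error only, were 0.146% to 0.369% and 0.241% to 0.773% in BAT, and the highest upper limit in the other depots was 0.183%, in eWAT. The log2 ratio of class II to class I was higher in BAT than in eWAT by 1.60 and than in iWAT by 1.86, and lay 0.26 lower in iWAT than in eWAT (-0.26). Both BAT libraries lay above the other 4. Since the class II sum overlapped between BAT and eWAT, the lower class I sum is the larger term of the ratio against eWAT. Against iWAT the class II sum was higher in both BAT libraries, so both terms enter that ratio.

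**Figure D4:**
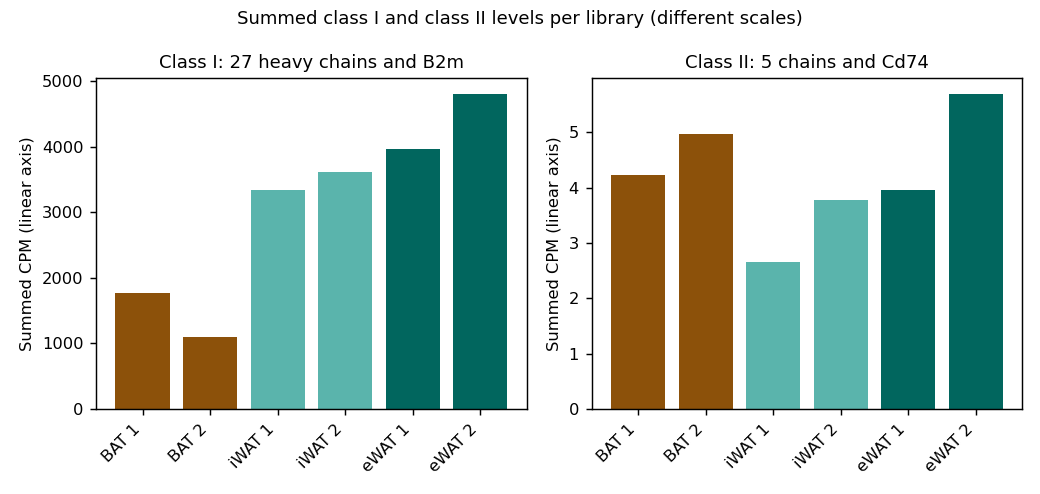
Summed level (CPM, linear axes of different scale) in each library, BAT, iWAT and eWAT from left to right, of the 27 class I heavy chains and B2m (left panel) and of the 5 class II chains and Cd74 (right panel). Class I reached 1766 and 1093 CPM in BAT against 3969 and 4804 CPM in eWAT, while class II stayed between 2.65 and 5.69 CPM in all libraries.

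H2-Eb1, the beta chain of the E molecule (chr17:34442811-34453619, plus strand), made up most class II chain counts in BAT. It had 14 and 9 counts in the BAT libraries, 2 and 3 in the iWAT libraries and 2 and 4 in the eWAT libraries, and BAT did not overlap either depot. Its CPM ratio of BAT to eWAT was 4.07 (exact 95% interval 1.61 to 12.2, counting error only) and of BAT to iWAT 5.09 (1.89 to 17.2). The edgeR test did not call it (adjusted p = 0.113 against eWAT and 0.170 against iWAT). It held 73.7% and 90.0% of class II chain counts in BAT, 40.0% and 60.0% in iWAT and 15.4% and 28.6% in eWAT. The chains of the A molecule were scarce in all depots. H2-Aa had 2 and 0 counts in BAT, 1 and 1 in iWAT and 6 and 3 in eWAT, and H2-Ab1 2 and 1, 2 and 0, and 4 and 6 counts in the same order. Cd74 had 1 and 3 counts in BAT, 6 and 10 in iWAT and 4 and 6 in eWAT, and the class II activator Ciita 1 and 0, 1 and 2, and 0 and 1 counts. None of these 4 genes passed the filter, and no test was made of them. The peptide exchange factor genes H2-DMa and H2-DMb1 gave log2 differences of BAT from eWAT of 0.35 ± 0.47 (adjusted p = 0.706) and -0.90 ± 0.40 (adjusted p = 0.220).

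The 250 bases before the starts of H2-Eb1 (chr17:34305617-34305866, plus strand) and H2-Aa (chr17:34287824-34288073, minus strand; GRCm38.p6, RefSeq) are shown with the same motifs in capitals, to set the class II chain with most counts in BAT beside one with few.
H2-Eb1: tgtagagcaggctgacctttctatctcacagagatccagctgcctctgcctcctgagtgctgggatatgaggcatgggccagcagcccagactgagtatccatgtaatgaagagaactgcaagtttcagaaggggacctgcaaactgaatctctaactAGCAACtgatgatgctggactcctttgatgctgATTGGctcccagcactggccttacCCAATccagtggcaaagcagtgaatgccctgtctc
H2-Aa: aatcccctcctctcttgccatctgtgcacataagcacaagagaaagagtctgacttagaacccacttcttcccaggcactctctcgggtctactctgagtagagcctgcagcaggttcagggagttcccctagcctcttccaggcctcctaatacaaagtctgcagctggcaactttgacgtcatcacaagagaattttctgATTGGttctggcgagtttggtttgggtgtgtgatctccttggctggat
The X box core AGCAAC was in the window of H2-Eb1 and in 4 of 9 class II windows (the others being H2-Oa, H2-Ob and H2-Eb2), in 2 of 27 class I windows and in 14.8% of all windows. Only exact matches were counted, so the ggcaac of H2-Aa, which differs in its first letter, was not marked. CCAAT was in 8 of 9 class II windows. These letters do not set H2-Eb1 apart from H2-Oa and H2-Eb2, which had 0 and 1 counts in all libraries.

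None of the remaining members was called by the edgeR test. Cd1d1, which presents lipids to natural killer T cells, had 127 and 118 CPM in BAT, 134 and 135 CPM in iWAT and 126 and 157 CPM in eWAT cultures (log2 difference of BAT from eWAT -0.20 ± 0.17, adjusted p = 0.518), and BAT and eWAT overlapped. The costimulatory ligand Cd80 had 7 and 0 counts in BAT, 14 and 15 in iWAT and 17 and 7 in eWAT (-1.72 ± 0.90, adjusted p = 0.290), and Cd86 3 and 1, 4 and 1, and 9 and 10 counts, too few for the filter. H2-Ke6 lies in the H2 region but encodes a steroid dehydrogenase, and gave 0.61 ± 0.23 (adjusted p = 0.168).

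Genes around the pathway were read from lists chosen with earlier results of these data known. A list of 9 genes covered the processing of class II peptides and the removal of class II from the surface. Of these, 5 were called lower in BAT than in eWAT (55.6%, beside 3.75% of all tested genes) and 0 in the other comparisons. March1, a ubiquitin ligase that removes class II from the surface, had 1.27 and 0.38 CPM in BAT, 1.92 and 1.51 CPM in iWAT and 13.0 and 11.1 CPM in eWAT (adjusted p = 0.0247). The protease Ctss had 25.6 and 6.12 CPM in BAT, 31.0 and 12.6 CPM in iWAT and 226 and 136 CPM in eWAT (adjusted p = 0.042), and Ctsl, Ifi30 and Lgmn were the other 3. For March1 both iWAT libraries lay above both BAT libraries and below both eWAT libraries, and for Ctss BAT and iWAT overlapped below eWAT. Among 13 transcription regulators 0 were called, including the interferon response factor Irf1 (log2 difference of BAT from eWAT -0.70, adjusted p = 0.209), and among 6 interferon receptor and kinase genes and 4 tested costimulatory or checkpoint genes 0 were called.

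Macrophage markers, like class I genes, had lower levels in BAT than in eWAT cultures. Of 18 tested macrophage markers, 8 were called lower in BAT than in eWAT (44.4%, beside 3.75% of all tested genes). All 18 had both BAT libraries below both eWAT libraries, as had 28.5% of all tested genes. Against iWAT 0 were called (over all tested genes, 0.895% lower and 0.145% higher). There 13 of the 18 had a negative log2 difference (median -0.55). Only 1 of the 18 had both BAT libraries below both iWAT libraries, where 16 of 19 class I genes and 24.1% of all tested genes had. Emr1, which encodes the macrophage antigen F4/80, had 23.5 and 6.12 CPM in BAT, 47.6 and 5.53 CPM in iWAT and 283 and 99.8 CPM in eWAT, and the leukocyte gene Ptprc 10.99 and 3.06, 13.5 and 4.02, and 84.8 and 41.8 CPM. Itgax of dendritic cells and macrophages had 1.69 and 0 CPM in BAT, 5.29 and 2.77 CPM in iWAT and 22.6 and 14.2 CPM in eWAT. It is 1 of 8 listed dendritic cell markers, of which only 2 passed the filter. Their log2 differences of BAT from eWAT were -4.13 and 0.08, and 1 was called lower, so the list as a whole shows no common direction. In each depot the macrophage sum was higher in replicate 1, and the class I sum was higher in replicate 1 of BAT and in replicate 2 of iWAT and of eWAT. The 5 markers of fibroblasts and preadipocytes summed to 3727 and 2763 CPM in BAT, 18876 and 20143 CPM in iWAT and 16397 and 17915 CPM in eWAT, the 3 called lower in BAT than in both white depots being Dcn, Pdgfra and Col3a1. Col1a1 was not called, and Thy1 was called higher in BAT than in eWAT (adjusted p = 0.0464), with 83.9 and 35.6 CPM in BAT, 132 and 139 CPM in iWAT and 17.01 and 15.4 CPM in eWAT. These 5 genes were named after their values were seen. Which cells carried the class I RNA, and the part of these lists in the class I differences, was not tested.

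**Figure D5:**
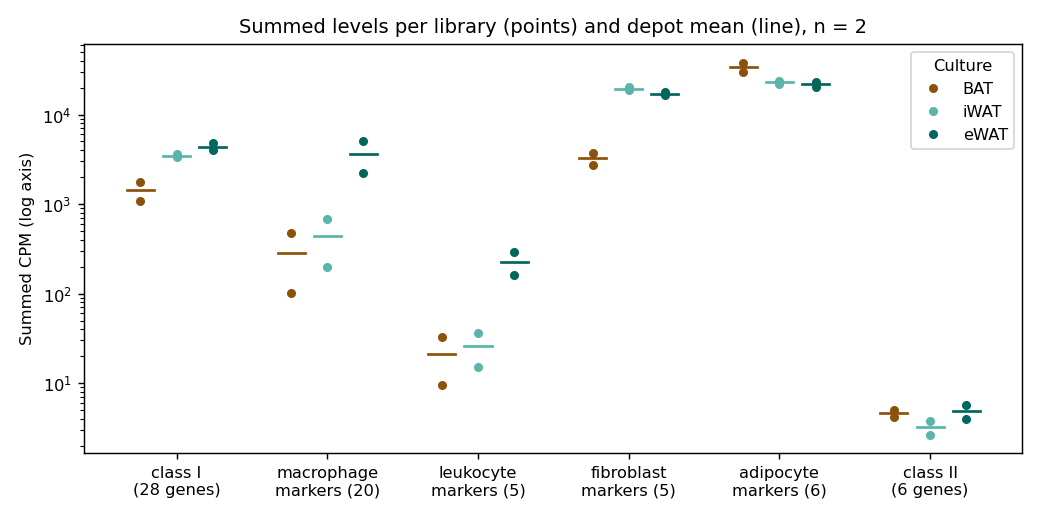
Summed level (CPM, log axis) of class I, of marker lists and of class II in each library (points) with the depot mean (line, n = 2), for BAT, iWAT and eWAT from left to right. The macrophage sums of BAT (470 and 101 CPM) and iWAT (674 and 201 CPM) overlap, while the class I and fibroblast sums of BAT lie below those of both other depots.

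Which genes were called depended on the libraries fitted. The count of 12 members called lower in BAT than in eWAT was 14 without BAT replicate 1 and 0 without BAT replicate 2, without either iWAT library or without either eWAT library, while all 19 class I genes kept a negative difference of BAT from eWAT in each of these fits. Against iWAT 18 of the 19 were negative without BAT replicate 2 (Erap1 turned to 0.14) or without iWAT replicate 1 (H2-M2 turned to 0.12). The number called over all genes went down as well, to between 17 and 194 in those 5 fits. With no filter on low counts 48 members entered the fit, and 19 were called lower in BAT than in eWAT (6.6% of all genes), 11 lower in BAT than in iWAT (3.0%) and 0 in iWAT against eWAT (1.99%). In the authors' deposited table, from a likelihood ratio test, 23 members were lower and 1 (H2-Eb1) higher in BAT than in eWAT at an adjusted p below 0.05, against 15.6% of all genes. That table gave 17 lower and again H2-Eb1 higher in BAT than in iWAT (8.24% of all genes), and 5 lower in iWAT than in eWAT (Erap1, H2-M2, H2-Q4, Cd86 and Psmb8; 8.52%).

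Related genes can share reads. Of the 50-base stretches in the reference transcript, 79.8% for H2-Ke6, 62.1% for Psme2, 39.2% for H2-Q4, 29.8% for H2-T23, 27.2% for H2-DMb1, 25.8% for Cd1d1, 22.9% for H2-Q1, 21.0% for Tapbp, 14.3% for H2-D1 and 8.79% for H2-K1 also occur in transcripts of other genes, which makes the levels of these genes uncertain. For B2m, Nlrc5, Psmb10, H2-Bl and H2-Eb1 the share was 0%. These shares are over the whole transcript and not over the bases counted, so they do not measure the error of a level. H2-D1, for example, had a transcript of 2102 bases and 676 counted, and H2-Bl one of 862 bases and 1164 counted. A transcript was matched for 28 of the 30 tested members, and H2-T10 and H2-L had none. Neither the read length nor the handling of reads with several matches is given in the sources used here. The H2 alleles of NMRI mice may differ from those of the mm9 reference, which comes from another strain, and their match was not tested.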

How the data were processed

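RNA was measured in 6 libraries, 2 from each depot, grouped by the labels. The authors aligned reads with STAR to mm9, per the submitters' processing notes; its version, the program that counted and the strandedness are not stated in the labels used. Per the file headers, raw counts stand in the deposited count table, beside the length counted. A second deposited table holds the authors' log2 fold changes and log2 values, a likelihood ratio score and p-values, per the file headers; it was used only where named. Its fold changes are negative where the tested depot is lower. Starts of genes are given as deposited and may count from 0.

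Counts were tested with edgeR 4.0.16 (R 4.3.3): filterByExpr, TMM, 1 quasi-likelihood fit of all 6 libraries with depot as the only term, F tests, two-sided, with Benjamini-Hochberg adjustment over the 11732 tested genes of each comparison, called at an adjusted p below 0.05. The SE is the absolute log2 difference over the square root of F. CPM are TMM-scaled, with error as SD over n = 2. The total counts of the libraries lay between 2889038 and 4807449. Replicates differed beyond counting noise (chi-square over degrees of freedom from 16.0 to 19.8). The procedure was tested on simulated data. Alternatives were RLE scaling, other filters, DESeq2 1.42.0, limma 3.58.1 (voom), a replicate block, fits of 4 libraries and leaving out each library. Figures used Python 3.11.15 and matplotlib 3.10.9. Promoter windows came from RefSeq and shared 50-base stretches from GENCODE transcripts of GRCm38.

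The members and gene lists were chosen with earlier results of these data known. Values in every library are given for called members and for 15 members chosen whatever their result; pathway genes are named if called, up to 4 a list, or from a short fixed list.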

Additional observations from a re-analysis of the deposited data

How the results depend on the processing

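With 2 libraries a depot the calls depend on the fit. For BAT against eWAT the count of members called was 12, and 19 with no filter on low counts, 20 with the replicate block (19 lower and 1 higher), 0 with only the 4 libraries of both depots, and 0 to 14 with one library left out; RLE scaling and limma voom gave 12, the stricter filter 11 and DESeq2 15. Over all genes the count was 758, and 1937 with no filter, 1275 by DESeq2, 2780 with the block, 156 with 4 libraries and 17 to 829 with one library left out. For BAT against iWAT the count of members was 0, and 11 with no filter, 8 by DESeq2 and 13 with the block; it was 0 in each fit with one library left out. Over all genes it was 122, and 780 with no filter, 485 by DESeq2, 69 by limma voom, 1225 with the block and 0 to 94 with one library left out. For iWAT against eWAT the count of members was 0 in every alternative, and that of all genes was 0, and 557 with no filter, 271 by DESeq2, 1 by limma voom, 563 with the block, 2 with 4 libraries and 0 to 3 with one library left out. The cause of these changes was not tested. Depots share replicate numbers, and deviations of same-numbered libraries correlated at 0.412 (BAT and eWAT), 0.448 (BAT and iWAT) and 0.556 (iWAT and eWAT) across genes, but 2 pairs a comparison do not establish a pairing. The log2 ratio of class II to class I for BAT against eWAT, 1.60, was 0.68 as a mean of log2(CPM + 1) and 1.14 to 2.06 with one library left out. For BAT against iWAT, 1.86, it was 2.996 without Cd74, 0.77 as a mean of log2(CPM + 1) and 1.40 to 2.32 with one library left out. For iWAT against eWAT, -0.26, it was -1.17 without Cd74 and -0.46 to -0.06 with one library left out. Among the 30 tested members, 999 of 1142 alternative values kept their direction and side of the threshold, mostly values that were not called and stayed so. A call was lost in 76 and gained in 56. All 76 losses fell on the 12 members called lower in BAT than in eWAT, each in 6 to 8 of its 12 or 13 alternatives. The sign turned in 11, each with one library left out and none for BAT against eWAT. With one library left out, values for BAT against iWAT ranged from -2.00 to 0.12 for H2-M2, -0.72 to 0.14 for Erap1, -0.15 to 0.44 for H2-DMa (-0.0068 without iWAT replicate 2) and -0.023 to 0.30 for Psme2. For iWAT against eWAT they ranged from -0.85 to 0.38 for H2-Eb1, -0.22 to 0.10 for Cd1d1, -0.15 to 0.83 for Cd80, -0.38 to 0.071 for H2-M3 and -0.017 to 0.11 for Psme2. Other scalings moved the median of all genes by at most 0.01 on the log2 scale. Depth limits the class II genes, with 33 counts in all in the BAT libraries.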
